A study of Equus caballus with 10 samples.

Results

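The genes CXCL1, CXCL2, MIP-2BETA, CXCL6 and CXCL8 encode chemokines that attract neutrophils, and all 5 were far higher in equine tenocytes cultured with IL-1β plus the IRAK4 inhibitor PF-06650833 than in cells given PF-06650833 alone. The members were taken by gene name, 5 of 29196 genes in the expression table, and they were picked with this contrast in view, so their values are given as a description without a test. Chemokines of this kind are small secreted proteins that carry a glutamate-leucine-arginine motif before their first cysteines. They bind to glycosaminoglycans on cells and matrix, and they draw neutrophils out of the blood through the receptors CXCR1 and CXCR2. In fibroblast-like cells their genes are classical targets of NFκB downstream of the IL-1 receptor, where IRAK4 is the first kinase recruited by the adaptor MyD88, and their mRNAs are short-lived.

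RNA was sequenced from 5 lines of primary adult equine tenocytes, each isolated from the superficial digital flexor tendon of a different horse and each present in both groups. The cells were grown for 14 days in 3D bovine collagen gels with PF-06650833 alone (100 nM, added daily) or with IL-1β (17 ng/ml, added every 3 to 4 days) plus PF-06650833 at the same dose, which gave 5 libraries per group. All libraries therefore came from cells exposed to the inhibitor, and libraries without it were not used here, so the values compare inhibited cells with and without IL-1β and do not measure what the inhibitor did. The lines were at passage 6 or 7, and several gels were pooled for each library.

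The values are log2 expression levels on a variance-stabilized scale, on which 3.43 corresponds to 0 reads. Normalised counts were recovered from them and are used for folds and shares. Limma p-values come from a fit that does not pair the libraries of a line, unless the line is named as a block. Estimated depth was 26600000 to 35900000 reads per library in the group without IL-1β, and 26800000 to 33600000 in the group with it. Of 12 tenocyte markers in the table, COL1A1 was at a mean of 18.74 with PF-06650833 alone and 17.36 with IL-1β, whereas TNMD, a marker of mature tenocytes, had 0 reads in every library. Of 18 leukocyte markers, 14 with PF-06650833 alone and 13 with IL-1β had at most 3 reads in any library of the group. The pan-leukocyte gene PTPRC had at most 3 reads without and 0 with IL-1β, and the neutrophil granule genes MPO and ELANE had at most 3. The summed count of the 18 markers ranged from 68.7 to 1772 without IL-1β and from 176 to 1947 in its presence, most of it from CD14 and CD68. The lysosomal gene CD68 rose (log2 difference 1.70, limma adjusted p = 0.00795). CD14 was not called but was higher in 4 of 5 lines (log2 difference 2.66, limma adjusted p = 0.34). In lines 4 and 5 CD14 had 0 reads without IL-1β and 290 and 1048 with it. In bulk libraries fewer cells of a type and less RNA per cell cannot be told apart.

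For each of the 5 chemokines, the lowest library with IL-1β lay above the highest library with PF-06650833 alone, by between 3.63 (CXCL8) and 5.41 (CXCL6) on the log2 scale. The groups failed to overlap in this direction for 6.29% of the 17992 genes tested. Because the members were selected on this contrast, nothing is read from their number. All 5 were higher in each of the 5 lines, and the mean differences ran from 6.29 (CXCL1) to 8.32 (CXCL6).

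**Figure D1:**
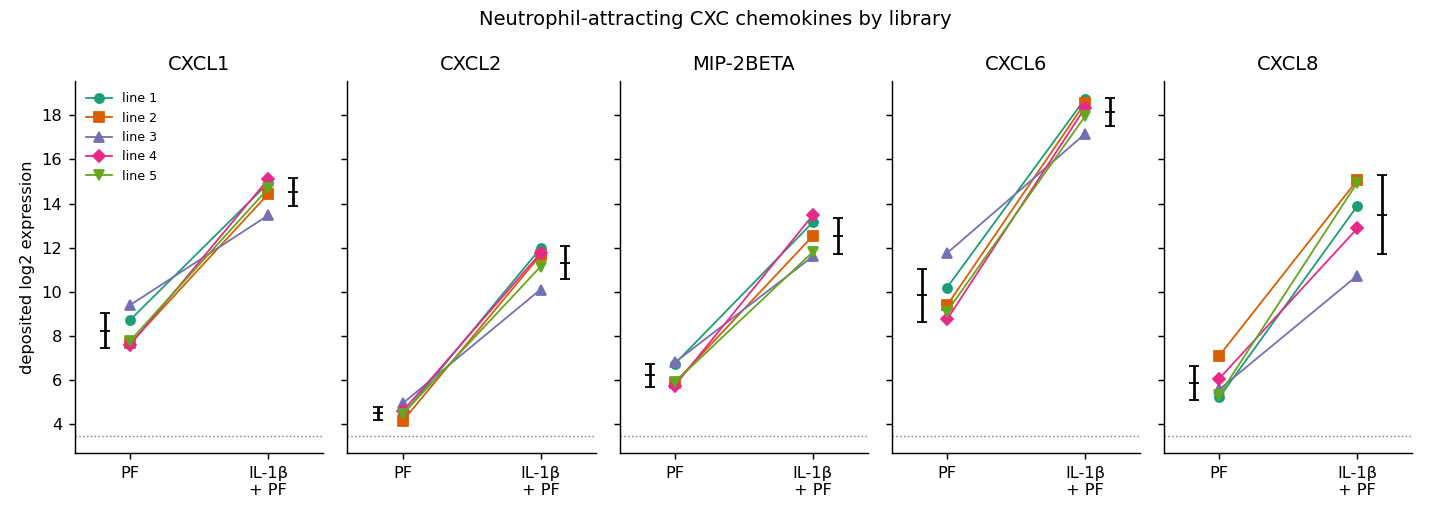
Deposited log2 expression of the 5 chemokine genes (y axis) with PF-06650833 alone (PF) and IL-1β plus PF-06650833 (x axis). Each line joins the libraries of 1 tenocyte line, black bars give the mean ± SD of 5 libraries, and the dotted line marks 0 reads (3.43). Every line rises in every panel, and line 3 (upward triangles) ends lowest in all 5.

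CXCL6, also called granulocyte chemotactic protein 2, signals through both CXCR1 and CXCR2 and had the largest mean log2 difference of the 5. With PF-06650833 alone it was at 10.19, 9.38, 11.75, 8.74 and 9.10 in lines 1 to 5, and with IL-1β at 18.75, 18.56, 17.16, 18.34 and 17.96. The mean rose from 9.83 ± 1.20 to 18.16 ± 0.63 (SD, n = 5), a log2 difference of 8.32 with an SD of 1.67 over the lines. Line 3 stood highest without IL-1β and lowest with it. CXCL6 had the widest spread of the members before IL-1β (3.01). With IL-1β its spread was 1.59, close to the 1.64 of CXCL1. In normalised counts the group means were 1230 and 312364, a 254-fold difference, and single lines ranged from 42.9-fold in line 3 to 817-fold in line 4.

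CXCL8, or interleukin-8, is the other member that binds CXCR1 as well as CXCR2. Its levels with PF-06650833 alone were 5.21, 7.10, 5.57, 6.06 and 5.32 in lines 1 to 5, and with IL-1β they were 13.89, 15.06, 10.73, 12.87 and 14.95. The mean rose from 5.85 ± 0.77 to 13.50 ± 1.79 (SD, n = 5), a log2 difference of 7.65 with an SD of 1.73 over the lines. CXCL8 differed most between lines with IL-1β, over 4.33 log2 units, from a normalised count of 1675 in line 3 to 34153 in line 2. Its fold ranged from 58.8 in line 3 to 1480 in line 5, and the ratio of the group mean counts was 390. Line 2 held the highest CXCL8 value in both groups, which no other member showed.

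CXCL1, the growth-regulated alpha chemokine and a CXCR2 ligand, was already detected in every line without IL-1β, at normalised counts of 173 to 654. With PF-06650833 alone it was at 8.73, 7.66, 9.40, 7.60 and 7.78 in lines 1 to 5, and with IL-1β at 14.93, 14.44, 13.47, 15.11 and 14.69. The mean rose from 8.23 ± 0.79 to 14.53 ± 0.64 (SD, n = 5), a log2 difference of 6.29 with an SD of 1.33 over the lines. Lines 3 and 1 were the highest without IL-1β, and lines 4 and 1 with it. Mean normalised counts were 322 and 25280, a 78.5-fold difference that spanned 17.3-fold in line 3 to 203-fold in line 4.

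MIP-2BETA, a close relative of CXCL1 that also acts on CXCR2, moved by almost the same mean amount. Its levels with PF-06650833 alone were 6.73, 5.87, 6.79, 5.74 and 5.90 in lines 1 to 5, and with IL-1β they were 13.15, 12.53, 11.60, 13.47 and 11.80. The mean rose from 6.21 ± 0.51 to 12.51 ± 0.82 (SD, n = 5), a log2 difference of 6.30 with an SD of 1.07 over the lines. Lines 1 and 3 were the highest without IL-1β, and with it lines 3 and 5 lay close together at the bottom. Mean normalised counts were 57.8 and 6594, or 114-fold apart.

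CXCL2, a further CXCR2 ligand and the counterpart of macrophage inflammatory protein 2 alpha, had almost no reads before IL-1β. With PF-06650833 alone its log2 levels of 4.40, 4.13, 4.93, 4.57 and 4.44 in lines 1 to 5 rested on an estimated 4, 2, 10, 6 and 5 reads. With IL-1β it was at 11.97, 11.66, 10.10, 11.75 and 11.14, on 937 to 3228 reads. The mean rose from 4.49 ± 0.29 to 11.32 ± 0.75 (SD, n = 5), a log2 difference of 6.83 with an SD of 0.99 over the lines. On this scale, which compresses low values, CXCL2 had the smallest SD of the 5 both without IL-1β and in its change. In mean normalised counts, 6.54 and 2786, the ratio was 426, and the 27 reads behind the lower mean give it an exact Poisson 95% interval of 293 to 646, which covers counting error only.

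The size of the change depended on the line, and line 3 changed least for each of the 5 members. Its log2 differences were 4.07 for CXCL1, 5.17 for CXCL2, 4.81 for MIP-2BETA, 5.41 for CXCL6 and 5.15 for CXCL8. The other 4 lines ranged from 5.90 (MIP-2BETA in line 5) to 9.63 (CXCL8 in line 5). Line 3 was also the lowest line with IL-1β for all 5 members, and the highest with PF-06650833 alone for 4 of them, the exception being CXCL8.

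Line 3 also changed least for many genes outside the family. Among the 555 other genes called higher with IL-1β (adjusted p below 0.05 and a log2 difference of at least 1), line 3 had the smallest change for 38.2%, against 11.4% to 24.0% for each other line, and a median log2 difference of 1.36 against 1.67 to 1.82. It had the smallest change together with the highest starting and the lowest final value for 33 of these genes, or 5.95%. Among the 642 genes called lower it had the smallest change for 60.7%. Without line 3 the mean differences of the chemokines were larger, 9.05 for CXCL6, 6.85 for CXCL1, 7.25 for CXCL2 and 6.68 for MIP-2BETA.

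**Figure D2:**
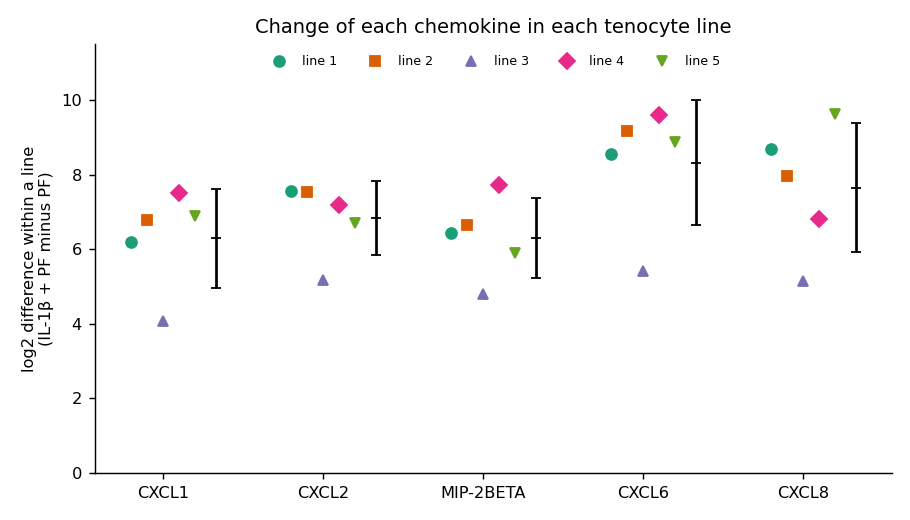
Log2 difference within each tenocyte line (y axis, IL-1β plus PF-06650833 minus PF-06650833 alone) for each chemokine gene (x axis). Coloured symbols are the 5 lines and black bars the mean ± SD over lines. Line 3 (upward triangles) has the smallest change for all 5 genes, between 4.07 and 5.41.

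By mean log2 difference the order was CXCL6, CXCL8, CXCL2, MIP-2BETA and CXCL1, but no pair of neighbours in this order was separated beyond the spread of the lines. CXCL6 exceeded CXCL8 by 0.68 ± 1.38 (SD, n = 5), with the larger change in 3 of 5 lines. CXCL8 exceeded CXCL2 by 0.82 ± 1.30, again in 3 lines, and CXCL2 exceeded MIP-2BETA by 0.53 ± 0.66, in 4 lines. MIP-2BETA and CXCL1 differed by 0.01 ± 0.65. The order also depended on the scale, because variance stabilization compresses changes from a few reads. On the scale of log2(normalised count + 1) CXCL2 came first at 8.53, followed by CXCL6 at 8.37, CXCL8 at 8.27, MIP-2BETA at 6.75 and CXCL1 at 6.40.

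The members took a larger share of each library with IL-1β than without. With PF-06650833 alone they held 0.00172% to 0.0121% of all normalised counts in a library, the highest share being that of line 3. With IL-1β the share was 1.38%, 1.19%, 0.477%, 1.03% and 0.876% in lines 1 to 5. Counts were not divided by transcript length, so shares describe sequenced reads and not molecules of mRNA.

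Most of this was CXCL6, which alone held 1.22%, 1.02%, 0.427%, 0.875% and 0.701% of the reads with IL-1β. No gene had more reads than CXCL6 in lines 1 and 2, while 11, 3 and 2 genes did in lines 3, 4 and 5. Of the reads of the 5 members, CXCL6 took 60.9% to 81.3% without IL-1β and 80.0% to 89.5% in its presence. Within single lines the share of CXCL6 was higher with IL-1β in each of the 5.

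**Figure D3:**
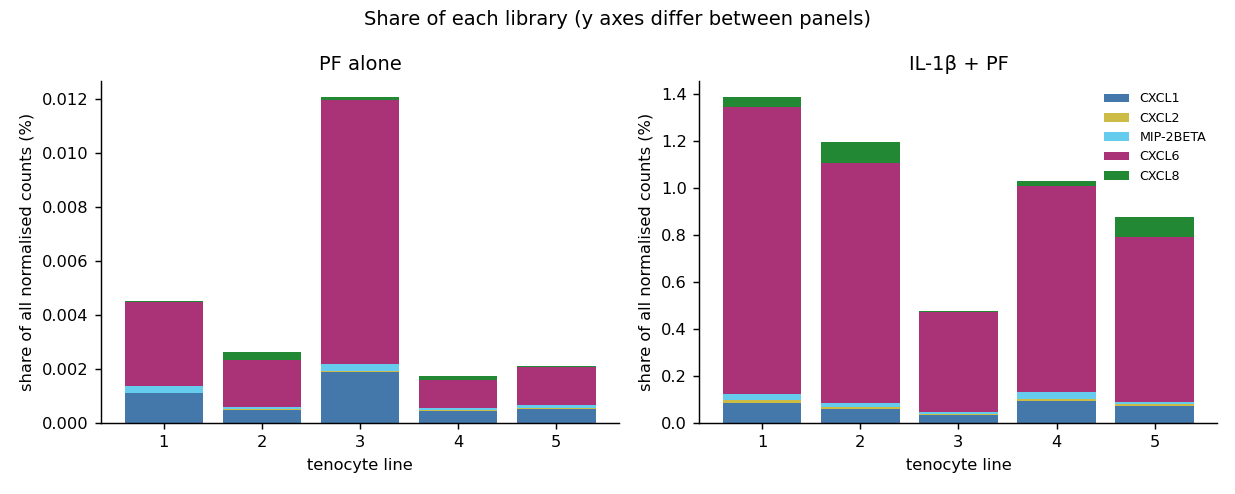
Share of all normalised counts in a library (y axis, %) taken by each chemokine gene, stacked, in tenocyte lines 1 to 5 (x axis) with PF-06650833 alone (left) and IL-1β plus PF-06650833 (right). The y axes differ: the stacks reach 0.0121% at most on the left and 1.38% on the right, and CXCL6 is the tallest segment in every bar.

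CXCL1, CXCL2 and MIP-2BETA are close paralogs, so reads common to them may have been divided between the 3 genes by the quantification. Their sum does not depend on that division. The summed normalised count was 493, 223, 756, 215 and 245 in lines 1 to 5 with PF-06650833 alone, and 44274, 31395, 15486, 50025 and 32124 with IL-1β, so the groups did not overlap. The ratio of the group means was 89.7, and within lines it was 89.8, 141, 20.5, 233 and 131.

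The make-up of the sum also shifted. CXCL2 took 1.02% to 3.27% of it without IL-1β and 6.83% to 10.3% with it, and these ranges did not overlap. The ranges of the other 2 genes did, at 80.8% to 86.4% and 70.5% to 82.0% for CXCL1 and at 11.9% to 17.4% and 11.0% to 22.7% for MIP-2BETA. The ratio of CXCL1 to MIP-2BETA counts was between 4.67 and 5.07 in 4 lines without IL-1β and 7.25 in line 3, and between 3.11 and 3.78 in 4 lines with IL-1β and 7.45 in line 5. The line that stood apart was therefore not the same in the 2 groups. How reads were assigned among the paralogs was not tested.

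Once the group means were subtracted and both groups were pooled, 4 of the members varied together across the 10 libraries and CXCL8 was less closely tied to them. Pearson's r of these deviations was 0.91 between CXCL1 and CXCL6, 0.82 between CXCL1 and MIP-2BETA, and between 0.64 and 0.77 for the other 4 pairs among CXCL1, CXCL2, MIP-2BETA and CXCL6. With CXCL8 it was 0.51 for CXCL2, 0.20 for CXCL1 and CXCL6, and 0.04 for MIP-2BETA. Values of a pair come from the same 10 libraries, which share lines and depth, so these are descriptions. Pooling can hide differences between the groups, and r was not computed for each group alone. Line 3 was highest without and lowest with IL-1β for CXCL1, CXCL2, MIP-2BETA and CXCL6, and r was not computed without that line. Reads may also be shared between CXCL1, CXCL2 and MIP-2BETA, and the part of such sharing in r was not tested. With IL-1β line 3 was lowest for CXCL8 as for the other members. With PF-06650833 alone, where CXCL8 rested on 17 to 88 reads, its highest line was line 2, against line 3 for the others. The ratio of CXCL6 to CXCL8 counts ranged widely, from 5.55 in line 2 to 120 in line 3 before IL-1β and from 8.08 in line 5 to 87.5 in line 3 with IL-1β.

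The order of the lines with IL-1β differed among the members. CXCL1 and MIP-2BETA were highest in line 4, CXCL2 and CXCL6 in line 1, and CXCL8 in line 2, followed by line 5. Line 2 was also second for CXCL6 (18.56, against 18.75 in line 1), and line 3 was lowest for every member. Lines 2 and 5 were the top pair with IL-1β for 35.9% of the 555 other genes called higher.

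The genes whose profile over the 10 libraries was most like the mean standardised profile of the members were NFKB2 (r = 0.994), WIPI1 (0.993), TSPYL1 (0.990), ZC3H12A (0.989), CEBPB (0.989), LOC100071714 (0.984), TCF7 (0.983) and YIPF4 (0.983). NFKB2 encodes an NFκB subunit, ZC3H12A the endoribonuclease regnase-1, and CEBPB a transcription factor of inflammatory genes. These correlations are mainly the contrast between the groups, on which the members were chosen. After the group means were subtracted the nearest genes were UBE2K (r = 0.90), CEBPB (0.884), LOC102148044 (0.874), ACADVL (0.869), LOC111769207 (0.865), RAB1A (0.864), SNRNP27 (0.864) and COQ10B (0.860). CEBPB was the 1 gene in both lists. The genes of both lists were picked from all tested genes outside the members by their r over 10 libraries. High values were thus selected for, and no test was made.

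The members lie side by side in the horse genome. In the gene order of the TB-T2T assembly, which is not the assembly used for quantification, 7 protein-coding genes run from the first member to the last, in the order CXCL1, MIP-2BETA, CXCL2, LOC100630489, PPBP, CXCL6 and CXCL8. The pair between them was almost silent, with 0 reads in every library for LOC100630489 and at most 5 reads for PPBP, a platelet chemokine gene. Outside the cluster, 2 of 10 tested genes among the 6 on each side were called higher and 0 lower by limma, against 3.11% and 3.57% of all genes tested. At an unadjusted limma p under 0.05 the counts were 4 and 0.

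Both were growth factor genes of the epidermal growth factor family on the CXCL1 side. EREG, epiregulin, rose from 8.50 ± 1.00 to 12.91 ± 1.45 (SD, n = 5), a log2 difference of 4.41 ± 0.67 (SE, limma adjusted p = 0.00182). EPGN, epigen, rose from 4.51 ± 0.90 to 6.33 ± 0.88, a log2 difference of 1.82 ± 0.50 (SE, limma adjusted p = 0.0310). Between EPGN and CXCL1, MTHFD2L differed by 0.74, below the log2 difference of 1 needed for a call (limma adjusted p = 0.0149). AREG and BTC, of the same growth factor family, differed by 0.20 (limma adjusted p = 0.882) and -0.19 (limma adjusted p = 0.792). The neighbours were looked at after the members' values had been seen.

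**Figure D4:**
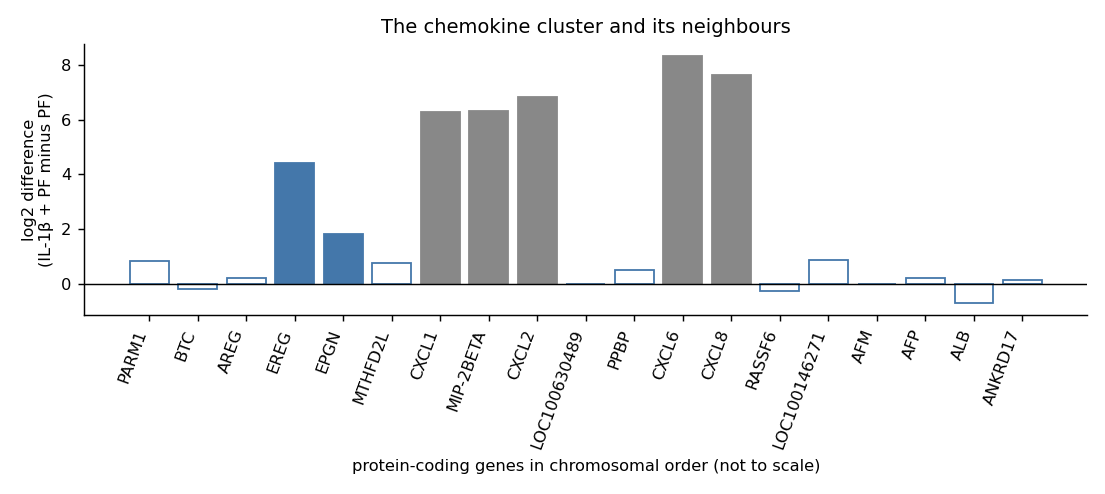
Log2 difference (y axis, IL-1β plus PF-06650833 minus PF-06650833 alone) of the chemokine genes and their protein-coding neighbours in chromosomal order (x axis, not to scale). Grey bars are the members, filled blue bars are neighbours called by limma and open bars are not called or not tested. EREG (4.41) and EPGN (1.82) are the filled neighbours, and LOC100630489 and PPBP between the members, which were not tested, are at 0 and 0.49.

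Beyond the members, 115 genes of 10 lists of the chemokine pathway could be tested, and 35 of them (30.4%) were called, 31 higher and 4 lower, against 6.68% of all genes tested and a median log2 difference of -0.00628 over all of these. The lists were chosen with earlier results of these data known, so nothing is read from that share. Of the receptors of the members, CXCR2 had 0 reads in every library with PF-06650833 alone and 3, 2, 0, 0 and 0 reads in lines 1 to 5 with IL-1β, and CXCR1 was not analysed here. Of 6 tested receptors, 0 were called higher and 1 lower by limma, with a median log2 difference of -0.81. At an unadjusted limma p under 0.05, 1 was higher and 2 were lower. The called receptor was ACKR4, a scavenging receptor of CC chemokines, which fell from 8.21 to 5.87 (log2 difference -2.34 ± 0.43, SE, limma adjusted p = 0.00467, lower in 5 of 5 lines). ACKR1, the atypical receptor that binds many CXC chemokines including several of the members, had a log2 difference of -1.0 with an SE of 1.11 (limma adjusted p = 0.605). ACKR2, a scavenger of CC chemokines, was lower in 5 of 5 lines at -0.82 (limma adjusted p = 0.0343), and missed the call by size alone. ACKR3, a scavenger of CXCL12, was lower in 5 of 5 lines at -0.81 (limma adjusted p = 0.254, or 0.00584 with the line as a block, where the size again kept it from being called).

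Of the other CXC chemokines 6 could be tested, and 4 were called higher and 0 lower by limma (4 and 0 at an unadjusted p under 0.05), with a median log2 difference of 1.85, or 2.67 with CXCL11 at its lower bound. They included the 3 ligands of CXCR3, a receptor of T cells. CXCL9 rose by 6.98 ± 0.66 (SE, limma adjusted p = 0.000166) and CXCL10 by 5.70 ± 0.78 (SE, limma adjusted p = 0.00107). Without IL-1β these rested on 0, 7, 1, 2 and 0 reads of CXCL9 and 2, 6, 0, 1 and 0 reads of CXCL10 in lines 1 to 5. On log2(normalised count + 1) and with 0.5 in place of 1 the differences were 9.68 and 10.23 for CXCL9 and 8.32 and 8.86 for CXCL10. CXCL11 had 4 to 109 reads with IL-1β and 0 in all libraries without it, a rise of at least 15.4-fold when the latter are set to 3 reads per library (limma adjusted p = 0.0118). That call was lost without line 1 or without line 2 (limma adjusted p = 0.0677 and 0.0657).

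CXCL14 rose by 1.39 ± 0.37 (SE, limma adjusted p = 0.0264), but was no longer called in 10 of 15 fits each missing 1 library or 1 line (limma adjusted p from 0.0515 to 0.128 there). These were the fits without the PF-06650833 alone library of line 1, 2, 3 or 4, the IL-1β library of line 1, 2 or 5, or both libraries of line 1, 2 or 4. CXCL12, which retains leukocytes through CXCR4, was higher in 5 of 5 lines at 1.29 (limma adjusted p = 0.190, or 0.0677 with the line as a block). CXCL16 had a log2 difference of 0.33 (limma adjusted p = 0.273, or 0.106 with the block). Fewer than 5 libraries had reads for PPBP or CXCL13, and CXCL17 had 0 reads in every library.

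Among the CC chemokines, which mostly attract monocytes and lymphocytes, 5 of 11 tested genes were called higher and 0 lower by limma (7 and 0 at an unadjusted p under 0.05), with a median log2 difference of 1.93. CCL20, a ligand of CCR6, rose by 4.69 ± 0.65 (SE, limma adjusted p = 0.00114), CCL1, at 0 to 17 reads without IL-1β, by 3.57 ± 0.69 (SE, limma adjusted p = 0.0063; 5.07 on log2(normalised count + 1)) and the monocyte attractant CCL2 by 2.40 ± 0.38 (SE, limma adjusted p = 0.00218). CCL8 likewise had 10 to 202 reads with IL-1β and 0 in all libraries without it, a rise of at least 24.7-fold by the same limit (limma adjusted p = 0.00484). CCL5, at 0 to 30 reads without IL-1β, rose by 1.93 ± 0.54 (SE, limma adjusted p = 0.0353; 3.28 on log2(normalised count + 1)), a call lost with the line as a block (limma adjusted p = 0.0578). It was also lost without the PF-06650833 alone library of line 1, 2, 3 or 5, the IL-1β library of line 1, 2 or 5, or both libraries of line 1, 2 or 5 (limma adjusted p from 0.0541 to 0.156). With the block 6 CC chemokines were called higher, CCL26 (log2 difference 2.31, higher in 5 of 5 lines) at a limma adjusted p of 0.00773 against 0.0533 without it, and CCL11 (1.24) at 0.0341 against 0.131. For comparison, CXCL1, MIP-2BETA and CXCL2 differed by 6.29, 6.30 and 6.83, and CXCL6 and CXCL8 by 8.32 and 7.65. Differences between the members and these chemokines were not tested.

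The path from the IL-1 receptor to the IκB kinases was mostly flat, with 2 of 18 tested genes called higher and 0 lower by limma (5 and 3 at an unadjusted p under 0.05) and a median log2 difference of 0.07. IRAK2, a further kinase of the receptor complex, rose by 1.86 ± 0.29 (SE, limma adjusted p = 0.00218), and IRAK3, which restrains signalling at that complex, by 1.04 ± 0.23 (SE, limma adjusted p = 0.0117), a call lost, at differences of 0.82 to 0.98, without the PF-06650833 alone library of line 4 or 5, the IL-1β library of line 1 or 4, or both libraries of line 4. IRAK4, the target of PF-06650833, was at 9.84 ± 0.16 and 9.95 ± 0.16 (SD, n = 5), a log2 difference of 0.11 (limma adjusted p = 0.571). The most abundant other genes that were not called were TOLLIP at 0.31 (limma adjusted p = 0.152), IRAK1 at -0.33 (limma adjusted p = 0.0653) and TAB2 at -0.24 (limma adjusted p = 0.354). MAP3K7 was lower in 5 of 5 lines at -0.67 (limma adjusted p = 0.00215) and missed the call by size alone. So did IL1R2, at most 16 reads, higher in 5 of 5 lines at 0.79 (limma adjusted p = 0.0137).

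The gene of the added cytokine, IL1B, had 1, 0, 0, 0 and 0 reads in lines 1 to 5 with PF-06650833 alone and 53, 85, 11, 48 and 34 with IL-1β (fitted log2 difference 2.59, or 5.36 on log2(normalised count + 1), limma adjusted p = 0.000652, higher in 5 of 5 lines). It was lowest in line 3 with IL-1β, as the 5 chemokines were.

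NFκB subunits and their inhibitors moved in larger number, with 6 of 16 tested genes called higher and 0 lower by limma (10 and 0 at an unadjusted p under 0.05) and a median log2 difference of 0.69. The largest differences belonged to NFKBIZ, the nuclear co-activator IκBζ, at 2.92 ± 0.22 (SE, limma adjusted p = 7.28e-05), and TNFAIP3, the deubiquitinating brake A20, at 2.42 ± 0.34 (SE, limma adjusted p = 0.00129). NFKBIA, which encodes IκBα, rose by 1.64 (limma adjusted p = 0.000107), and the subunit genes NFKB2 and NFKB1 by 1.32 (limma adjusted p = 7.28e-05) and 1.15 (limma adjusted p = 0.000436). TNIP1, a partner of A20, rose by 1.03 (limma adjusted p = 0.00652), a call lost, at differences of 0.85 to 0.98, without the PF-06650833 alone library of line 1, the IL-1β library of line 2 or both libraries of line 2. RELA was at 0.15 (limma adjusted p = 0.288), CYLD at 0.18 (limma adjusted p = 0.304) and RELB at 0.71 (limma adjusted p = 0.0206). REL at 0.95 (limma adjusted p = 0.00543) and NFKBIB at 0.67 (limma adjusted p = 0.00336) were higher in 5 of 5 lines. Like RELB, they missed the call by size alone.

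C/EBP and AP-1 factors, which bind chemokine promoters beside NFκB, gave 2 of 12 tested genes called higher and 0 lower by limma (4 and 1 at an unadjusted p under 0.05) and a median log2 difference of 0.01. CEBPB rose by 1.50 ± 0.15 (SE, limma adjusted p = 0.000186) and FOSL1 by 1.40 ± 0.20 (SE, limma adjusted p = 0.0012). CEBPB had been picked from all tested genes by the likeness of its deviations to those of the chemokines. In line 3 CEBPB was the highest of the 5 lines without IL-1β (13.25) and the lowest with it (13.92). These values are part of that likeness and not a separate result. FOSL2 was at -0.26 (limma adjusted p = 0.585), JUNB at 0.03 (limma adjusted p = 0.912) and CEBPD at -0.00 (limma adjusted p = 0.994). CEBPG was lower in 5 of 5 lines at -0.87 (limma adjusted p = 0.000398) and missed the call by size alone.

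Of 12 tested genes that act on the stability of AU-rich mRNAs such as those of the members, 2 were called higher and 1 lower, with a median log2 difference of 0.13. ZC3H12A, whose product cleaves inflammatory mRNAs, rose by 3.04 ± 0.19 (SE, limma adjusted p = 1.78e-05), and TRAF3IP2, which encodes the adaptor Act1 that stabilizes chemokine mRNAs, rose by 1.53 ± 0.17 (SE, limma adjusted p = 0.000386). ZFP36L2, a decay-promoting zinc finger protein, fell by 1.44 on the log2 scale (limma adjusted p = 0.0015). ZFP36L1 was at -0.49 (limma adjusted p = 0.250), MAPKAPK2 at 0.50 (limma adjusted p = 0.0142) and HNRNPD at 0.08 (limma adjusted p = 0.592).

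Proteins that hold or trim chemokines outside the cell split in direction, with 3 of 18 tested genes higher, 2 lower and a median log2 difference of 0.57. The matrix metalloproteinase genes MMP1, MMP3 and MMP9 rose by 5.97 ± 1.42, 5.40 ± 1.02 and 2.09 ± 0.51 (SE, limma adjusted p = 0.0165, 0.00542 and 0.0182). The heparan sulphate proteoglycan genes SDC3 and SDC2, whose sugar chains can carry chemokines, had log2 differences of -1.87 and -1.61 and were lower in 5 of 5 lines (limma adjusted p = 0.0146 and 0.0265). The call of MMP1 was lost without line 1 or 5 (limma adjusted p of 0.0678 and 0.092), that of MMP9 without line 1, 2 or 5 (0.0703 to 0.102) and that of SDC3 without line 2 or 5 (0.0731 and 0.0737). That of SDC2 was lost in 10 of the 15 fits (limma adjusted p from 0.0506 to 0.108), without the PF-06650833 alone library of line 1, 4 or 5, the IL-1β library of line 1, 2 or 5, or both libraries of line 1, 2, 3 or 5. MMP2 was at 0.73 (limma adjusted p = 0.185), MMP13 at 2.05 (limma adjusted p = 0.113) and MMP14 at 0.60 (limma adjusted p = 0.170). With the line as a block 4 genes of the list were called higher and 3 lower, MMP8 (2.26, limma adjusted p = 0.0373) and HSPG2 (-1.12, limma adjusted p = 0.0367) being added.

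Other factors of neutrophil production and recruitment gave 7 of 16 tested genes called higher and 0 lower by limma (9 and 0 at an unadjusted p under 0.05), with a median log2 difference of 1.42. CSF3, the granulocyte colony-stimulating factor that drives neutrophil output from bone marrow, rose by 7.86 ± 0.73 (SE, limma adjusted p = 0.00015). IL6 rose by 8.79 ± 0.75 (SE, limma adjusted p = 0.000107), its relatives LIF by 4.99 ± 0.40 (SE, limma adjusted p = 7.98e-05) and IL11 by 3.49 ± 0.44 (SE, limma adjusted p = 0.000701), and the prostaglandin synthase gene PTGS2 by 7.09 ± 0.82 (SE, limma adjusted p = 0.000423). ICAM1, to which neutrophil integrins attach, rose by 1.87 ± 0.43 (SE, limma adjusted p = 0.0145), a call lost without line 2 (limma adjusted p = 0.0549). CSF1 was at 0.16 (limma adjusted p = 0.772), IL17RA at 0.17 (limma adjusted p = 0.480) and IL17RC at -0.07 (limma adjusted p = 0.794). With the line as a block VCAM1, at 2.57 and higher in 5 of 5 lines, was also called (limma adjusted p = 0.000831, against 0.106 without the block). The blocked fit called 4.01% of all genes tested higher and 4.25% lower.

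**Figure D5:**
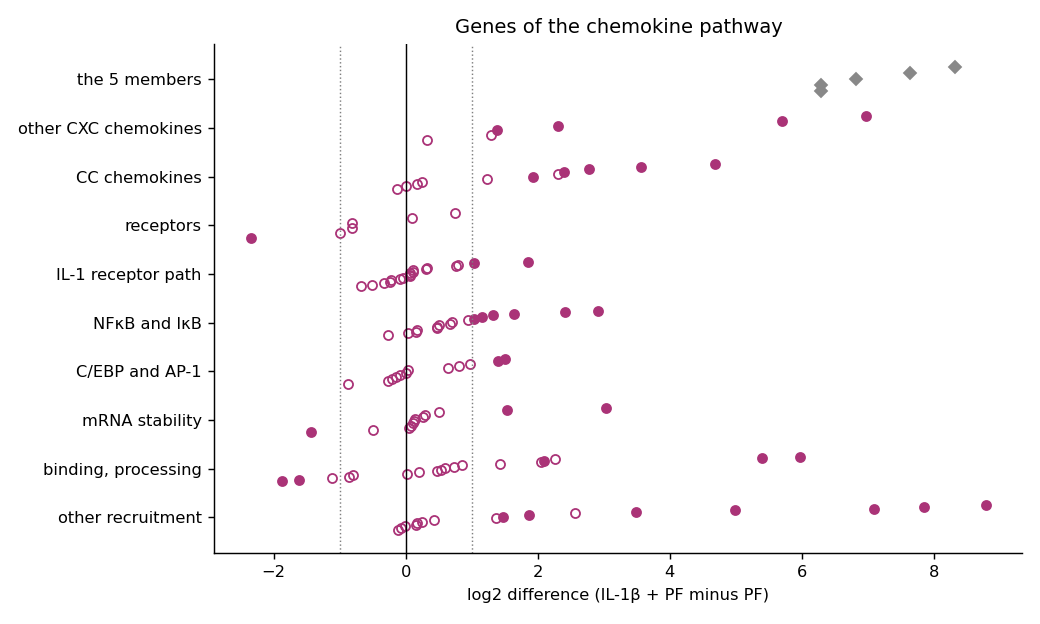
Log2 difference (x axis, IL-1β plus PF-06650833 minus PF-06650833 alone) of every tested gene in each list (y axis). Grey diamonds are the 5 members, filled circles are genes called by limma, open circles are not called and dotted lines mark a difference of 1 in either direction; CXCL11 and CCL8, with 0 reads without IL-1β, are drawn at their fitted values. The members lie between 6.29 and 8.32, and among the other genes CXCL9, IL6, CSF3 and PTGS2 lie beyond 6.29.

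Markers of tenocytes and of other cells moved in part with the same contrast. The tenocyte transcription factors SCX and MKX were at -3.24 (limma adjusted p = 0.000611) and -2.85 (limma adjusted p = 0.00554), and 4 of 11 tested tenocyte markers were called lower and 0 higher by limma (6 and 0 at an unadjusted p under 0.05). With the line as a block COL1A1 and COL1A2 were also called, which made 6 lower. Other abundant markers of the list were not called, with DCN at 1.01 (higher in 5 of 5 lines, limma adjusted p = 0.268), PDGFRA at 0.46 (limma adjusted p = 0.466) and LUM at 0.33 (limma adjusted p = 0.693). Of endothelial markers 1 of 6 tested was lower and 0 higher by limma (ERG, -2.68, limma adjusted p = 0.000389), and at an unadjusted p under 0.05 the counts were 1 lower and 2 higher. Of mural and muscle markers 2 of 6 were lower (RGS5 and DES). Endothelial markers summed to 232 to 714 normalised counts without IL-1β, against 46.1 to 106 in its presence, of which ERG had up to 635 and 59 reads and each other endothelial marker at most 36, and mural and muscle markers to 38392 to 212032 and 50990 to 95569. Their part in the chemokine values was not tested.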

How the data were processed

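Poly(A) RNA from 10 libraries (5 tenocyte lines, 2 groups) was analysed. Per the labels and the study's methods, the authors quantified reads with Salmon 1.8, with GC-bias correction, against the EquCab3.0 transcriptome, imported them with tximport and used DESeq2 1.36, after quality control in FastQC 0.11.9. The authors deposited log2 values for 29196 genes, with a lowest value of 3.433 common to all libraries. The transformation is not named in the sources used here; the values have the form of DESeq2's variance stabilization, which also normalises libraries and, per the study's supplement, included libraries not used here. Normalised counts were obtained by inverting it, and reads per library were estimated from the spacing of low values, of which 62.2% to 82.5% lay within 0.15 of a whole read. Reads per gene are therefore approximate, and counting intervals cover counting error only.

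The 17992 genes that exceeded the lowest value in 5 or more libraries were fitted with limma 3.58.1 in R 4.3.3 (mean-variance trend, no donor term, Benjamini-Hochberg adjustment over all of them) and called where the adjusted p was below 0.05 and the log2 difference was 1 or more in either direction. Python 3.11.15 with numpy 2.4.6, scipy 1.17.1 and pandas 2.3.3 gave the descriptive values. Libraries were paired by the line named in their titles. Deviations from group means correlated by 0.367 to 0.506 in the 5 same-line pairs, against a mean of -0.107 over 20 pairs of different lines. The latter mean largely follows from the same-line values, because deviations cancel out within a group, so it is not a separate check. The fit was also run on simulated data, with independent libraries and no line effect, so that run does not cover lines shared between groups.

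The members, lists and rules were chosen with earlier results of these data known. Named were the 5 members, called receptors and chemokines, at most 6 called genes (largest differences) and 3 abundant uncalled genes of each other list, IRAK4, IL1B and the 8 genes most like the members by either measure. Neighbours, the values by line behind line 3, and genes named for a call gained with the block or missed by size alone were chosen after values were seen. Promoter and protein sequences and coordinates were not used here. Alternatives were other scales, thresholds, filters, normalizations and variance models, the line as a block, and leaving out each library or line.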

Additional observations from a re-analysis of the deposited data

Results flagged for a closer look

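Within groups of 5 libraries, 6 single values lay far from the other 4 by Dixon's criterion, out of 107 groups over 55 genes, and chance alone gives about 1 in 20 groups, here about 5.35. In line 3 with IL-1β plus PF-06650833, the line with the lowest chemokine values, CCL20 was at 8.37 (an estimated 269 reads) against 11.10 to 12.05 in the other lines, ZC3H12A at 11.66 against 12.35 to 12.63, and CEBPB at 13.92 against 14.39 to 14.48. With PF-06650833 alone CEBPB in line 3 was at 13.25 against 12.67 to 12.82. ACKR1 in line 4 with IL-1β was at 3.43, which is 0 reads, against 6.43 to 7.07. TNIP1 in line 2 with PF-06650833 alone was at 12.76 against 12.21 to 12.37. None of the values of the 5 chemokines met the criterion.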

How the results depend on the processing

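The 5 chemokines kept their direction under all alternatives run. CXCL2 moved most, from a log2 difference of 6.83 to 8.53 on log2(normalised count + 1) and 8.65 with 0.5 in place of 1, since variance stabilization compresses changes from a few reads. Leaving out single libraries or lines gave 5.99 to 6.85 for CXCL1, 6.65 to 7.25 for CXCL2, 5.95 to 6.68 for MIP-2BETA, 8.01 to 9.05 for CXCL6 and 7.15 to 8.34 for CXCL8. The line as a replicate block leaves mean differences as they are. With it 1486 genes were called (721 higher, 765 lower) against 1202 without, and 39 against 35 of the lists; it ended the call of CCL5 and of no other of the 36 called and named list genes followed. Across all genes, 1809 were called with the block on log2(normalised count + 1), 2782 without a minimum difference, 719 at an adjusted p below 0.01, and 762 to 1422 when a library or line was left out (762, 790 and 777 without lines 1, 2 and 5, with fewer samples). The lists gave 27 to 38 calls in those fits and 26 to 45 under the other alternatives. Of these 36 genes, 26 kept call and direction under every alternative that tested them (26, or 25 for 7 genes that had 0 reads in some library) and 10 lost the call under at least 1 (CCL5, CXCL11, CXCL14, ICAM1, IRAK3, MMP1, MMP9, SDC2, SDC3 and TNIP1), with 0 reversed. Depth limited CXCL2 with PF-06650833 alone and CXCL9, CXCL10, CXCL11, CCL1, CCL5, CCL8 and IL1B, which rest on few or 0 reads in that group; the differences of these 7 grew by over 1 on the log2 scale when 0.5 was added to counts.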
